A study of Sus scrofa with 2 samples.

Results

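Barcodes with a high mitochondrial share were taken as those with 5000 or fewer detected genes in which 7% or more of the UMIs (unique molecular identifiers, each counting 1 captured mRNA molecule) came from the 13 protein-coding genes of the mitochondrial genome. They numbered 3255 of the 29837 deposited barcodes, with 2178 of 14289 in AF75 and 1077 of 15548 in AF76. AF75 and AF76 are the somatic cells of antral follicles 1 and 2 of 1 Landrace × Yorkshire pig, 210 days old and primed with PMSG, a gonadotropin that drives follicle growth. Each follicle was over 7 mm wide and described as healthy, and its cells were collected after puncture and flushing, with the cells of the cumulus-oocyte complex freed in 0.1% hyaluronidase. Each follicle gave 1 library made with the 10x Genomics 3′ kit (version 3.1), which reads poly(A) RNA from the 3′ end, and neither follicle received a treatment that the other lacked. The study set such barcodes aside by the same 7% limit, together with those below 2000 or above 5000 genes. Here they were described in 2 gene ranges, under 2000 and from 2000 to 5000 genes, and set against the barcodes of the same follicle and gene range with under 7%, called the comparison barcodes.

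The mitochondrial genome encodes subunits of the respiratory chain and of ATP synthase, and their transcripts are made and kept inside the organelle. The nuclear genome encodes the remaining subunits, and their mRNAs are translated in the cytoplasm. A droplet that captures a cell with a torn plasma membrane, a nucleus, a fragment or free RNA can hold these RNA pools in other proportions than an intact cell does, and a high mitochondrial share is widely used to screen such droplets out. Granulosa cells are the steroid- and inhibin-producing cells that line the antral follicle and surround the oocyte.

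The mitochondrial share chose the barcodes, so it is given as a description. All other genes were called nuclear genes, and their levels were given as CPM, the UMIs of a gene per 1000000 UMIs of all genes but the 13, each summed over a group of barcodes. The ratio was the CPM of the high-mitochondrial barcodes over that of the comparison barcodes. With 1 library per follicle, and because barcodes of a library are not replicates, no test was made. Ranges in parentheses after a ratio or a share are 95% intervals (exact conditional for ratios, Clopper-Pearson for shares) that cover counting error only. The libraries had 56 barcode sequences in common, and 7 of these were high-mitochondrial in AF75, 7 in AF76 and 3 in both. By a doublet score, 12 and 26 of the high-mitochondrial barcodes under 2000 genes and 12 and 4 from 2000 to 5000 genes were in the top 6.9% of their library. Barcodes that carry little RNA per cell and droplets that hold only part of a cell cannot be told apart in these counts.

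Barcodes with a high mitochondrial share were mostly barcodes with few genes. Under 2000 genes there were 1985 in AF75, 43.2% (41.8 to 44.6) of the 4595 barcodes of that range, and 935 in AF76, 12.6% (11.9 to 13.4) of 7397. In the range of 2000 to 5000 genes there were 193 in AF75, 2.02% of 9555, and 142 in AF76, 1.78% of 7985. The follicles thus differed several-fold in the lower range and had similar percentages in the upper one, with 1 library on each side. In AF75 the percentage was 56.3% below 500 genes, 40.1% from 500 to 999, 41.1% from 1000 to 1499 and 29.4% from 1500 to 1999, and then 3.83% from 2000 to 2999 and 0.937% from 3000 to 5000. In AF76 the same bins held 20%, 8.84%, 12.6%, 11.3%, 4.64% and 0.9%. In both follicles the percentage from 2000 genes upward was well below that of the bin just under 2000. Above 5000 genes, outside the definition, the limit was reached by 0 of 139 barcodes in AF75 and 1 of 166 in AF76.

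**Figure D1:**
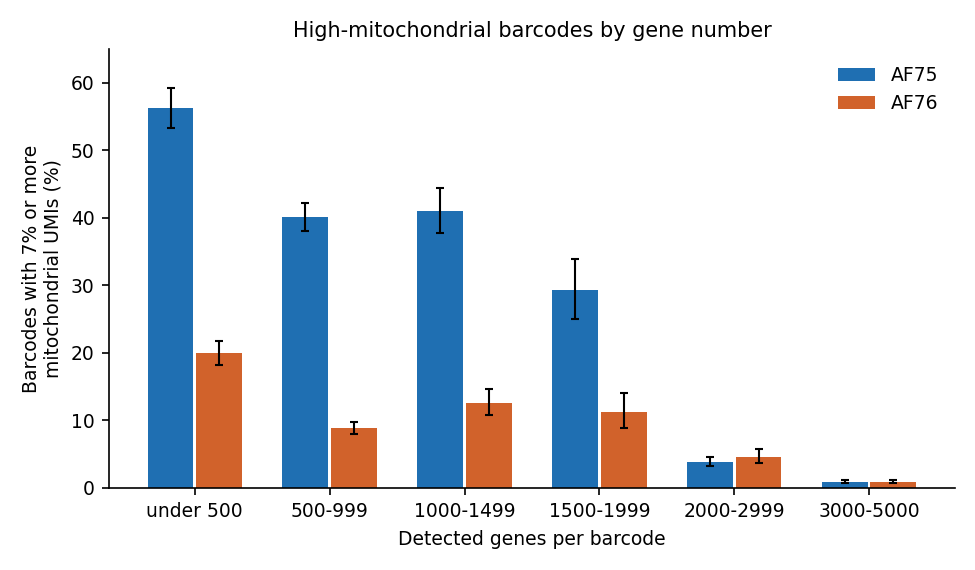
Percentage of barcodes with 7% or more mitochondrial UMIs (vertical axis) by the number of detected genes per barcode (horizontal axis), for AF75 in blue and AF76 in orange, with 95% Clopper-Pearson intervals as error bars. Below 2000 genes the bars run from 29.4% to 56.3% in AF75 and from 8.84% to 20% in AF76, and from 3000 to 5000 genes both are under 1%.

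Under 2000 genes the shares lay far from the limit. The median mitochondrial share was 25.6% in AF75 (quartiles 16.6% and 39.8%, highest 71.5%) and 31.8% in AF76 (quartiles 16.5% and 55.1%, highest 82.5%), against 1.302% and 1.161% in the comparison barcodes. Barcodes with 2000 to 5000 genes sat close to the limit, with a median of 7.93% in AF75 and 8.45% in AF76 against 2.58% and 2.96%. Just inside the limit, from 7% to 8%, lay 54 and 45 barcodes under 2000 genes and 101 and 55 from 2000 to 5000. Just outside, from 6% to 7%, lay 59 and 71, and 178 and 155. The limit therefore cut a thin part of the distribution in the lower range and its tail in the upper one.

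The high share in the lower range came with both more mitochondrial and fewer nuclear UMIs per barcode. In AF75 the median barcode held 370 mitochondrial and 958 nuclear UMIs, against 14 and 1240.5 in the comparison barcodes. In AF76 it held 508 and 797, against 13 and 1142. In the upper range the medians were 722 mitochondrial and 7550 nuclear UMIs in AF75, against 292 and 10940, and 841.5 and 8190 in AF76, against 400 and 13476. When each barcode was thinned at random to 500 nuclear UMIs, the high-mitochondrial barcodes under 2000 genes showed a median of 386 nuclear genes in AF75 and 385 in AF76, against 364 and 360. This thinning left out 319 and 269 of them and 17 and 68 comparison barcodes, all with fewer UMIs. In the upper range, where no barcode was left out, the medians were 374 and 377 against 365 and 366. Without thinning, the median numbers of detected genes under 2000 genes were 675 and 581, against 749.5 and 682. Summed over barcodes, the nuclear UMIs behind the values below were 2404318 and 1077596 for under 2000 genes and 1546695 and 1246116 for 2000 to 5000 genes.

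The 13 mitochondrial genes kept almost the same order in high-mitochondrial and comparison barcodes. COX2, a subunit of cytochrome c oxidase, led with 26.1% of the mitochondrial UMIs in AF75 and 25.4% in AF76 under 2000 genes, against 26.6% and 25.8%. COX1, the catalytic subunit of the same enzyme, gave 10.7% and 11.07%, against 12% and 11.9%. CYTB of complex III gave 12.4% and 13.4% against 11.08% and 12.5%, ATP6 of ATP synthase 12.4% and 11.5% against 12.1% and 10.8%, and ND1 of complex I 4.34% and 3.95% against 3.86% and 3.60%. The 4 genes COX1, CYTB, ATP6 and ND1, taken as markers of these barcodes, thus kept much the same part of the mitochondrial UMIs whatever the total. The genes with few UMIs departed most in proportion under 2000 genes. ATP8 gave 0.0493% (0.0446 to 0.0545) in AF75 and 0.0519% (0.0456 to 0.0588) in AF76, against 0.142% and 0.115%, and ND6, the one gene on the opposite strand, 0.140% and 0.152% against 0.252% and 0.283%. ND4L gave 0.142% and 0.197% against 0.282% and 0.258%, and ND5 1.23% and 1.54% against 1.80% and 2.06%. In the range from 2000 to 5000 genes ATP8 gave 0.0698% and 0.0742% against 0.0735% and 0.0683%, and ND6 0.144% and 0.183% against 0.110% and 0.191%.

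ATP8 and ND4L share bases with their neighbours and are read from one transcript with them. UMIs in the shared bases can belong to either gene, so the level of their shares is uncertain. The shared bases are the same in both groups of barcodes, and their part in the difference between the groups was not tested. Both sequences are shown, from the RefSeq copy of Sscrofa11.1, plus strand of the mitochondrial genome, 5′ to 3′, with the bases that the next gene also holds in capitals. ATP8 lies at MT:8959-9162, and its last 43 bases are also the first of ATP6. ND4L lies at MT:11069-11365, and its last 7 bases are also the first of ND4.
ATP8: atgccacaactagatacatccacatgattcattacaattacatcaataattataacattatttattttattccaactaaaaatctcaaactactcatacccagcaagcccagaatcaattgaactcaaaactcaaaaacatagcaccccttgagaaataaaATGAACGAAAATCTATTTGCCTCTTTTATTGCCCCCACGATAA
ND4L: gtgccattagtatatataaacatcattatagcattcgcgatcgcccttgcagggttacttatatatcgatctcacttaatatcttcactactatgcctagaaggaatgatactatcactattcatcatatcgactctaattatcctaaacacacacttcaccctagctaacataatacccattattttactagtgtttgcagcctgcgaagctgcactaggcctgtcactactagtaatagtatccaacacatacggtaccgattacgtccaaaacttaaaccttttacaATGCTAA

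**Figure D2:**
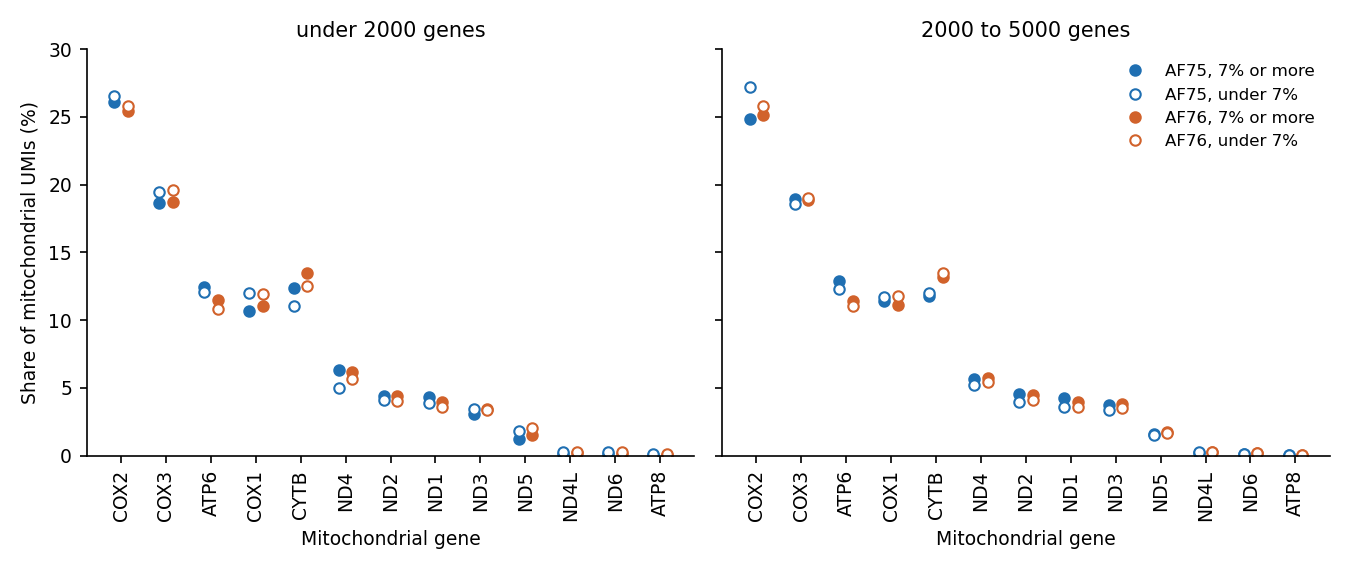
Share of each of the 13 mitochondrial genes in the mitochondrial UMIs (vertical axis, %), for barcodes under 2000 genes (left) and with 2000 to 5000 genes (right), with filled points for 7% or more and open points for under 7%, AF75 in blue and AF76 in orange. Filled and open points lie within a few percentage points of each other for each gene, ND4L, ND6 and ATP8 are too close to 0 to be told apart on this scale, and COX2 is at the top between 24.8% and 27.2%.

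Under 2000 genes, many nuclear genes were higher in the high-mitochondrial barcodes and few were lower. Of 22329 nuclear genes, 6901 had at least 20 UMIs, observed or expected from the comparison barcodes, in the high-mitochondrial barcodes of each follicle. Of these, 1342 (19.4%) were higher by 2-fold or more in both follicles and 11 (0.159%) lower by 2-fold or more in both. In a single follicle 1598 and 1778 were higher and 66 and 48 lower. The median gene had a log2 ratio of 0.35 in AF75 and 0.36 in AF76. CPM is a share of a fixed total, so abundant genes that are lower leave room for others to be higher, and the split depended on the scaling. Divided by the median gene ratio, 657 genes (9.52%) were higher and 244 (3.54%) lower. With mitochondrial UMIs kept in the totals 569 (7.92%) were higher and 515 (7.17%) lower, of 7184 genes. Thus 99.2% of the calls were higher as reported and 72.9% and 52.5% under these scalings. Across the 6901 genes, which are not independent and share the libraries' totals, Pearson's r of the log2 ratio between the follicles was 0.90, with 4126 genes above 1 in both, 2028 below 1 in both and 747 split. The high-mitochondrial barcodes also differed from barcodes with 2000 to 5000 genes and under 7%, called the intact reference here, a range that the study used before it also removed doublets, which were not removed here. Of 6864 genes, 827 (12.0%) were higher by 2-fold or more than in this reference in both follicles and 5 (0.0728%) lower. Of the 1342 genes, 758 were also higher by 2-fold over the reference in both follicles, and 1330 were above it in both. Both ratios use the same counts of the high-mitochondrial barcodes, so this overlap is partly built in and is no separate support. The median of the 6864 genes was itself above the reference, at log2 ratios of 0.26 and 0.31.

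**Figure D3:**
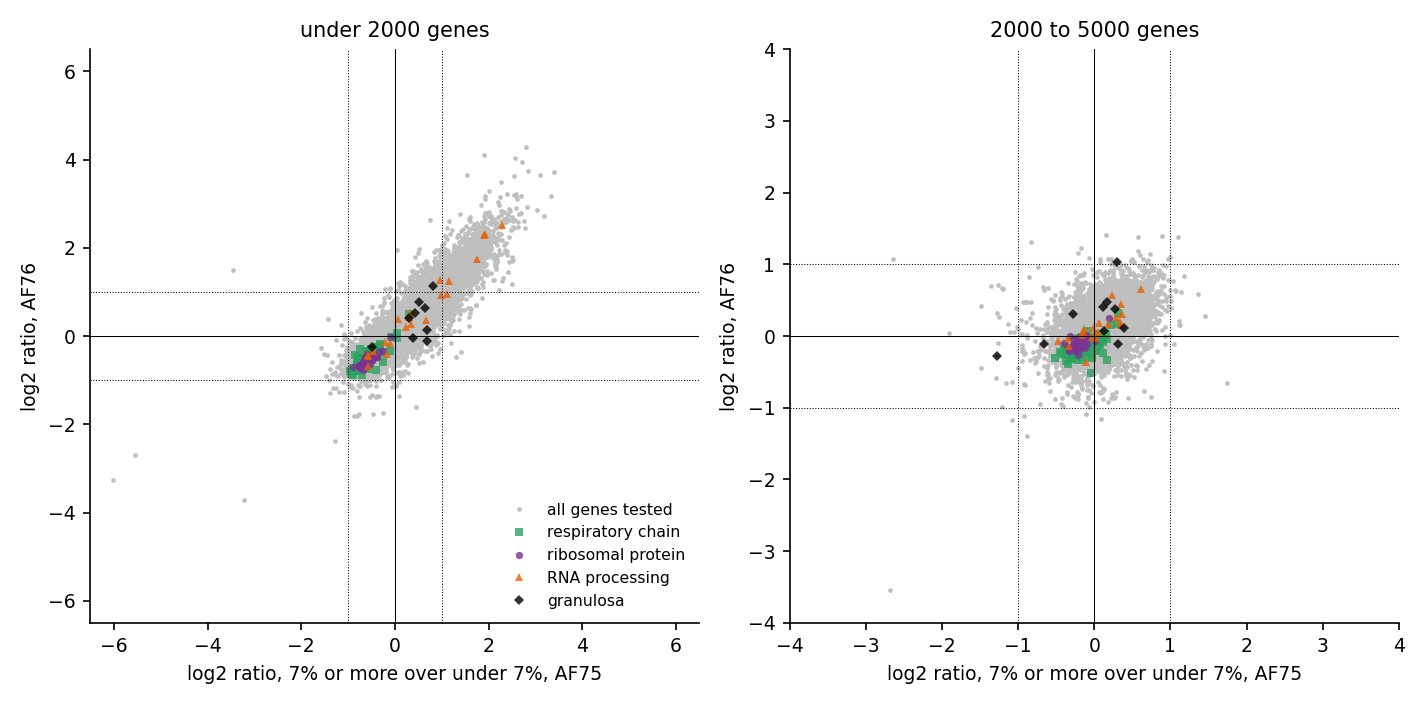
log2 CPM ratio of high-mitochondrial over comparison barcodes in AF75 (horizontal axis) and AF76 (vertical axis), 1 point per gene with at least 20 UMIs observed or expected in each follicle, under 2000 genes (left) and from 2000 to 5000 genes (right), with dotted lines at 2-fold. On the left the points follow the diagonal, with ribosomal protein and respiratory chain genes at the lower left and some RNA-processing genes at the upper right. On the right nearly all points lie inside the 2-fold lines.

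The ratio followed the length of the transcript. The 6252 genes (90.6%) with a RefSeq transcript were put into 4 length classes of 1563 genes each. The class with the shortest transcripts, 306 to 1986 bases, had a median log2 ratio of -0.44 in AF75 and -0.37 in AF76. The next classes had 0.23 and 0.23, then 0.64 and 0.68, and the longest, 5740 to 44177 bases, 1.00 and 1.11. Of the genes of each class, 27, 129, 371 and 708 were higher by 2-fold or more in both follicles. Thus 1.73% of the shortest length class and 45.3% of the longest were past 2-fold, and 8 of the lower genes with a transcript were in the shortest length class and 1 in the next. Spearman's correlation across genes, a description, was 0.66 and 0.68 for transcript length, 0.54 in both follicles for the number of exons, and 0.48 and 0.49 for the length of the gene on the chromosome. Set against the intact reference, the high-mitochondrial barcodes ran from -0.30 and -0.19 in the shortest length class to 0.79 and 0.80 in the longest. The comparison barcodes under 2000 genes ran the other way against the same reference, from 0.17 and 0.20 to -0.19 and -0.28. In the shortest and longest length classes the groups of the lower range thus departed from the intact reference in opposite directions. The departure was larger in the high-mitochondrial barcodes, except in the shortest length class of AF76, at -0.19 against 0.20.

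Single barcodes showed the same shift. In AF75 the longest length class of transcripts gave a median of 15.8% of the nuclear UMIs of a high-mitochondrial barcode (10th and 90th percentiles 8.78% and 23.3%), against 8.56% (6.22% and 13.2%) in comparison barcodes. In AF76 it gave 13.6% (7.88% and 23.4%) against 7.76% (5.77% and 10.98%). The distributions overlapped in both follicles, with the 10th percentile of the high-mitochondrial barcodes inside the comparison range. The shortest length class gave medians of 34.4% and 39.0%, against 44.8% and 47.6%.

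Several genes with large ratios had almost no UMIs in the comparison barcodes. RYR3, a calcium release channel of the endoplasmic reticulum, was at 30.4 CPM in AF75 and 28.8 in AF76 against 2.89 and 2.18, ratios of 10.5 (5.78 to 20.7) and 13.2 (7.41 to 24.0), and rested on 73 and 31 UMIs. ERC2, a scaffold protein of the presynaptic active zone, had ratios of 6.99 and 19.4, and UNC5C, a netrin receptor, 9.09 and 6.59. IFNE, a type I interferon, had 6.55 and 15.4, RGS9, a regulator of G protein signalling, 6.43 and 8.95, and CRAMP1 8.13 and 7.26. All 6 lay between 14.1 and 52.4 CPM in the high-mitochondrial barcodes, and all 6 were higher there than in the intact reference, where RYR3 was at 6.32 and 6.44 CPM. They are the genes with a symbol among the 10 with the largest ratio holding in both follicles, a ranking that low counts favour. The other 4, some of them ranked above these, have no symbol. The 6 named genes met the minimum of UMIs, observed or expected, only by their observed counts in the high-mitochondrial barcodes. The ranking and the ratio to the intact reference use those same counts. Lying above the reference is thus partly built in and is no separate support.

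Among the 1342 genes, some of the abundant ones were chosen after their values were seen. The most abundant was the unnamed ENSSSCG00000032395, at 15620 CPM in AF75 and 17996 in AF76 against 5292 and 4746, ratios of 2.95 and 3.79. VMP1, a membrane protein of the endoplasmic reticulum needed for autophagosome formation, was at 3299 CPM in AF75 against 629, a ratio of 5.25 (5.03 to 5.48), and at 2593 CPM in AF76 against 277, a ratio of 9.36 (8.88 to 9.87). The intact reference had 892 and 761 CPM, so VMP1 was high in the high-mitochondrial barcodes against both groups, and low in the comparison barcodes against the reference. MAP1B, a microtubule-associated protein with a transcript of 12353 bases, was at 4836 and 3883 CPM against 1962 and 1268, ratios of 2.46 (2.40 to 2.53) and 3.06 (2.96 to 3.17). BMPR1B, a receptor for bone morphogenetic proteins in granulosa cells with a transcript of 15767 bases, was at 1724 and 970 CPM against 683 and 269. SRRM2, a scaffold protein of nuclear speckles, was at 980 and 1341 CPM against 246 and 260, ratios of 3.99 (3.71 to 4.28) and 5.15 (4.83 to 5.50). CCDC88A, an actin-binding signalling protein, had ratios of 2.82 and 3.77, and the less abundant SNRNP70, a protein of the U1 splicing particle, 6.07 (5.36 to 6.88) and 8.67 (7.67 to 9.79).

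Among the gene lists, RNA-processing proteins divided by member. The list of 21 splicing and RNA-binding proteins had a summed level of 10837 CPM in AF75 and 10800 in AF76 against 7202 and 7066, ratios of 1.505 (1.48 to 1.53) and 1.528 (1.499 to 1.56). All 21 were measured, 5 were higher by 2-fold or more in both follicles against 19.4% of all genes, and none lower. The 5 were DDX5 and DDX17, RNA helicases, at ratios of 2.23 and 2.38 and of 3.37 in both follicles, RBM25, an RNA-binding splicing regulator, at 4.88 and 5.73, LUC7L3, a U1-associated protein, at 3.81 and 4.95, and PNISR, a nuclear protein rich in arginine and serine, at 3.72 and 4.87. All but DDX5, and NPM1 below, were chosen after their values were seen. DDX5 was the most abundant of them, at 3414 and 2860 CPM against 1532 and 1203. HNRNPA2B1, an abundant RNA-binding protein, had 1.18 and 1.16. NPM1, a nucleolar chaperone, was at 400 and 409 CPM against 598 and 656, ratios of 0.669 and 0.624. The median log2 ratio of the list was 0.32 and 0.38, close to that of all genes, and its summed log2 ratio of 0.59 and 0.61 stayed above 0 with the median gene ratio as the scale (0.24 and 0.25) and with mitochondrial UMIs in the totals (0.20 and 0.11).

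Nuclear mRNAs of the translation and respiration machinery were lower, although the mitochondrial transcripts of the same respiratory complexes were higher by the definition. Of 59 cytoplasmic ribosomal protein genes measured, all 59 were below 1 in both follicles and none reached 2-fold. Their summed level was 69471 CPM in AF75 and 89789 in AF76 against 104809 and 133405, ratios of 0.663 (0.659 to 0.666) and 0.673 (0.669 to 0.678). RPS12 was at 2530 and 3233 CPM against 3867 and 4735, RPL10 at 2241 and 3143 against 3555 and 4849, and RPL7A at 1816 and 2336 against 2862 and 3516. Of the 59 genes, 57 were in the class with the shortest transcripts, at a median of 749 bases.

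Of 64 nuclear genes of the respiratory chain and ATP synthase, 61 were below 1 in both follicles, 2 above 1 in both and none past 2-fold, with a summed ratio of 0.656 (0.648 to 0.664) in AF75 and 0.690 (0.680 to 0.701) in AF76. ATP5F1C, the γ subunit of ATP synthase, was at 978 and 1320 CPM against 1695 and 1997. COX4I1, a nuclear subunit of cytochrome c oxidase, was at 842 and 832 against 1177 and 1146, and ATP5F1E at 828 and 882 against 1201 and 1322. Only 43 of the 64 had a RefSeq transcript under the same name, too few to describe the list by length. Of 67 genes of the mitochondrial ribosome, which translates the mitochondrial mRNAs, 57 were below 1 in both follicles and 1 above, at summed ratios of 0.674 and 0.695. MRPL17 was at 248 and 256 CPM against 423 and 407. Of the 65 with a transcript, 54 were in the shortest length class. Under each scaling tried, the summed levels of these 3 lists were lower in both follicles and in both gene ranges.

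Actin, antioxidant, glycolytic and heat shock lists were also lower in summed level. All 21 actin cytoskeleton genes measured, of which 13 were in the shortest length class, were below 1 in both follicles, at summed ratios of 0.678 and 0.723, with TMSB10, a small actin-binding peptide, at 9738 and 9583 CPM against 15272 and 14426, ANXA2, a membrane-binding annexin, at 6007 and 6006 against 8371 and 7473, and ACTG1, cytoplasmic γ-actin, at 3451 and 3668 against 4777 and 5088. Of 19 antioxidant and metal-binding genes, 15 were below 1 in both and 2 above, at summed ratios of 0.779 and 0.823. In the shortest length class were 15 of the 19. One of them, HMOX1, the heme-degrading oxygenase, was called lower, at 4.99 and 36.2 CPM against 12.4 and 81.3. GPX3, a secreted glutathione peroxidase, went the other way in value at 1.23 and 1.31. Of 12 glycolytic genes 8 were below 1 in both and none above, at summed ratios of 0.724 and 0.720, with GAPDH at 1994 and 1758 CPM against 3183 and 2622, ENO1 at 1266 and 1045 against 1805 and 1460, and PKM at 1389 and 1102 against 1701 and 1416.

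Within the heat shock list, 9 of 16 genes were below 1 in both follicles and 4 above. HSPB1, a small cytoplasmic chaperone, was at 4545 and 4920 CPM against 7580 and 7398, and HSP90AA1 at 2856 and 2714 against 3766 and 3732. On the other side, HSP90B1 and HSPA5, chaperones of the endoplasmic reticulum, were at 880 and 484 against 473 and 297, and at 795 and 659 against 488 and 465. No member reached 2-fold in both follicles, and HSP90B1 and HSPA5 were chosen after their values were seen.

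Stress and death genes showed no common direction in CPM, and their lists lay below the median of all genes in both follicles. Of 10 immediate early genes measured, 3 were above 1 in both follicles, 5 below and none past 2-fold, at median log2 ratios of -0.01 and -0.10 against 0.35 and 0.36 for all genes, and 1 of the 10 was above the median of all genes in each follicle. With the median gene ratio as the scale, the summed log2 ratio of this list was -0.26 and -0.44, that of the stress response list -0.54 and -0.46, and that of the apoptosis list -0.45 and -0.29. FOSL2, with a transcript of 6438 bases in the longest length class, had the largest value, at ratios of 1.94 and 1.74. Among 11 genes of the unfolded protein and integrated stress response, 3 were above 1 in both, 5 below and none past 2-fold, with ATF4, a transcription factor of that response, at 634 and 560 CPM against 697 and 556. Of 15 apoptosis and p53 target genes, 6 were above 1 in both, 7 below, 2 higher by 2-fold, a share under the 19.4% of all genes, and none lower. The 2 were APAF1, the core of the apoptosome, and XIAP, an inhibitor of caspases. APAF1, with a transcript of 9211 bases in the longest length class, was at 458 and 488 CPM against 192 and 142. XIAP had ratios of 2.05 and 2.46 and was chosen after its values were seen. GADD45A, a p53 target and the most abundant, was at 530 and 648 CPM against 842 and 921. The shortest length class held 4 of the 10 immediate early, 5 of the 11 stress response and 7 of the 15 apoptosis genes. The longest class held 1, 0 and 2 of them.

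The sterol list lay at the background of all genes. Of 19 genes for cholesterol synthesis and uptake, 12 were above 1 in both follicles, 3 below, 2 higher by 2-fold against 19.4% of all genes and none lower, at summed ratios of 1.31 (1.28 to 1.34) and 1.25 (1.20 to 1.29). The median log2 ratio of the list was 0.28 and 0.33, below the 0.35 and 0.36 of all genes. With the median gene ratio as the scale the summed log2 ratio was 0.04 in AF75 and -0.04 in AF76. LSS, which closes the sterol ring, was past 2-fold at ratios of 2.86 and 2.77, and was chosen after its values were seen, as were CENPF and CENPE below. SCARB1, the receptor for high-density lipoprotein and the most abundant, was at 1310 and 1000 CPM against 766 and 618. For cell division 5 genes were measured, too few to set against the 19.4% of all genes, with a median log2 ratio of 0.17 and 0.30 that was below that of all genes. CENPF and CENPE, proteins of the kinetochore, were past 2-fold at 2.67 and 2.27 and at 2.57 and 3.498, and the others were NUSAP1 at 1.13 and 1.18, MCM7 at 1.06 and 1.23, and PCNA, the clamp of DNA replication, at 0.693 and 0.815.

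INHA had the highest level among the granulosa genes. INHA, the inhibin α subunit, was detected in 1984 of 1985 barcodes in AF75 (median 958 nuclear UMIs) and 934 of 935 in AF76 (797). It was also detected in all 15 and 77 blood barcodes of the same gene range, taken by the leukocyte and red cell limits given below. These had medians of 1896 and 2157 nuclear UMIs and INHA at 1979 and 2595 CPM. Detection alone thus did not tell the groups apart, while the level differed. Whether INHA in blood barcodes came from free RNA or from granulosa cells in the same droplet was not tested. In the high-mitochondrial barcodes INHA was at 18382 and 17992 CPM against 11765 and 11562, ratios of 1.56 in both follicles, and below the intact reference at 20402 and 23890 CPM. SERPINE2, a secreted protease inhibitor, was at 5193 and 3965 CPM against 3849 and 2771, and INHBA, an activin and inhibin β subunit, at 3123 and 624 against 1787 and 282. CYP11A1, which makes pregnenolone from cholesterol inside mitochondria, was at 1259 and 1315 CPM against 1772 and 1564. Of 9 granulosa genes measured, 6 were above 1 in both follicles, 1 below and none past 2-fold in both. Their summed level was 29041 and 24724 CPM against 19921 and 16792, and against 32179 and 33759 in the intact reference.

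Subtype lists, chosen on these follicles in earlier work and so not independent, gave little. Of 8 mural genes measured 4 were above 1 in both follicles, 2 below and none past 2-fold, with IL33 at 2770 and 3036 CPM against 2828 and 2564, APOA1 at 2935 and 792 against 2786 and 553, and AREG, an EGF-like ligand, at 1636 and 2179 against 1568 and 2414. Of 3 cumulus-like genes measured, VCAN, a proteoglycan of the expanding cumulus matrix, was higher, at 4761 and 515 CPM against 1870 and 191. Its ratios were 2.55 (2.48 to 2.62) and 2.70 (2.45 to 2.97), and its transcript of 12085 bases is in the longest length class. The intact reference had VCAN at 2111 and 440 CPM. From 2000 to 5000 genes VCAN went the other way in both follicles, at ratios of 0.607 (0.58 to 0.634) and 0.83 (0.76 to 0.91). TNFAIP6, which crosslinks the cumulus matrix, had ratios of 0.989 and 1.12, and THBS1 of 1.77 and 0.929. SCG2 and CTSS of the secretory list had 1.22 and 0.934, and 1.59 and 3.23. In AF76 1 barcode held 28.85% of the CTSS UMIs of the high-mitochondrial barcodes. ISG15 and MX1 of the interferon list had 0.570 and 0.774, and 0.632 and 0.868. No gene of the CEMIP list had enough UMIs in both follicles, at summed levels of 8.73 and 432 CPM against 8.22 and 384. In AF75 CEMIP, CCDC80 and FBXO32 had 1, 1 and 19 UMIs in the high-mitochondrial barcodes. In AF76 they had 215, 165 and 86 UMIs, at ratios of 1.69 (1.46 to 1.96), 0.855 (0.725 to 1.003) and 0.920 (0.728 to 1.15). Of these CEMIP UMIs 23.3% were in 1 barcode, and CEMIP was detected in 6.42% of the barcodes against 5.79%. The intact reference had the list at 3.26 and 126 CPM.

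Markers of other cell types stood at low levels. The leukocyte list of 12 genes summed to 7.90 CPM in AF75 against 43.5, and to 115 in AF76 against 67.5. Barcodes with at least 3 UMIs over 2 or more of 5 leukocyte genes numbered 0 of 1985, which allows up to 0.186%, and 3 of 935, against 2 of 2610 and 26 of 6462. The endothelial list summed to 44.5 and 13.9 CPM against 14.7 and 9.89, theca or stromal genes to 184 and 342 against 220 and 369, and oocyte genes to 11.6 and 6.496 against 7.11 and 6.03. The endothelial sum of AF75 was mostly KDR, at 34.1 CPM against 7.33. The theca or stromal sum was nearly all INSL3, at 178 and 259 CPM against 212 and 296.

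Red cell transcripts led the 11 lower genes. HBB, β-globin, was at 83.2 CPM in AF75 against 3874, a ratio of 0.0215 (0.0186 to 0.0247), and at 1572 in AF76 against 10216, a ratio of 0.154 (0.147 to 0.162). A single barcode held 88.5% and 94.4% of the HBB UMIs of the high-mitochondrial barcodes. Barcodes in which HBB made 5% or more of the nuclear UMIs numbered 1 in each follicle, against 12 and 48 comparison barcodes, and without these and the leukocyte-marker barcodes the log2 ratio of HBB turned to 1.42 and 1.17. HBM, another globin, had 0 and 3 UMIs in the high-mitochondrial barcodes. It was at least 9.26-fold lower in AF75, against 11.6 CPM and with 3 UMIs worth 1.25 CPM as the floor, and its ratio in AF76 was 0.0767 (0.0157 to 0.226). The unnamed gene ENSSSCG00000007978 moved with them, at ratios of 0.0154 and 0.104, and also turned in AF76 without the blood barcodes.

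The other 8 lower genes were scarce, with 51 or fewer UMIs each in the high-mitochondrial barcodes of a follicle where a symbol is known. They included HMOX1, given above, and EXOSC3, a subunit of the RNA exosome, at 11.2 and 10.2 CPM against 29.3 and 24.8, ratios of 0.383 (0.243 to 0.583) and 0.411 (0.203 to 0.748). ALAD, an enzyme of heme synthesis, was at 9.57 and 11.14 CPM against 22.0 and 27.0, CDKN1C, a cyclin-dependent kinase inhibitor, at 3.74 and 15.8 against 8.89 and 35.4, CMBL, a hydrolase, at 14.97 and 24.1 against 32.0 and 58.5, and IFITM3, an antiviral membrane protein, at 11.6 and 47.3 against 25.1 and 97.2. PPME1, a protein phosphatase methylesterase, had ratios of 0.374 and 0.498. The remaining gene has no symbol. Against the intact reference, HMOX1, CDKN1C and IFITM3 were lower in AF75, at ratios of 0.723, 0.535 and 0.552. In AF76 these 3 were higher than the reference, at 1.91, 1.33 and 1.72. EXOSC3, ALAD and CMBL were below the reference in both follicles.

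The nuclear composition did not change evenly with the mitochondrial share. Under 2000 genes in AF75, the longest length class of transcripts gave 7.44%, 9.16% and 12.1% of nuclear UMIs in barcodes with 0 to 1%, 1 to 3% and 3 to 7% mitochondrial UMIs, then 14.6%, 17.7% and 17.0% at 7 to 10%, 10 to 20% and 20 to 50%, and 10.4% at 50% or more. In AF76 the same bins gave 6.89%, 8.32%, 10.4%, 12.8%, 16.02%, 17.4% and 11.8%. The longest class's share thus already differed below the 7% limit, peaked between 10% and 50%, and was partly gone in the barcodes with at least as many mitochondrial as nuclear UMIs. VMP1 followed the same course, from 357 and 184 CPM at 0 to 1% to 3936 CPM at 10 to 20% in AF75 and 3320 at 20 to 50% in AF76, and 668 and 588 CPM at 50% or more. Ribosomal protein genes mirrored it, from 112763 and 134069 CPM at 0 to 1% to lows of 63724 and 81811, and 102221 and 111233 at 50% or more. INHA took another course, with 9144 and 10961 CPM at 0 to 1%, 22094 and 19866 at 7 to 10%, 16634 and 15486 at 20 to 50%, and 19460 and 20670 at 50% or more.

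Barcodes at 50% or more were also the poorest. They numbered 203 in AF75 and 290 in AF76, with medians of 460 and 393.5 nuclear UMIs and 349 and 308.5 detected genes, against 1505 and 1633 nuclear UMIs at 10 to 20%. The part of depth in the turn was not tested.

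**Figure D4:**
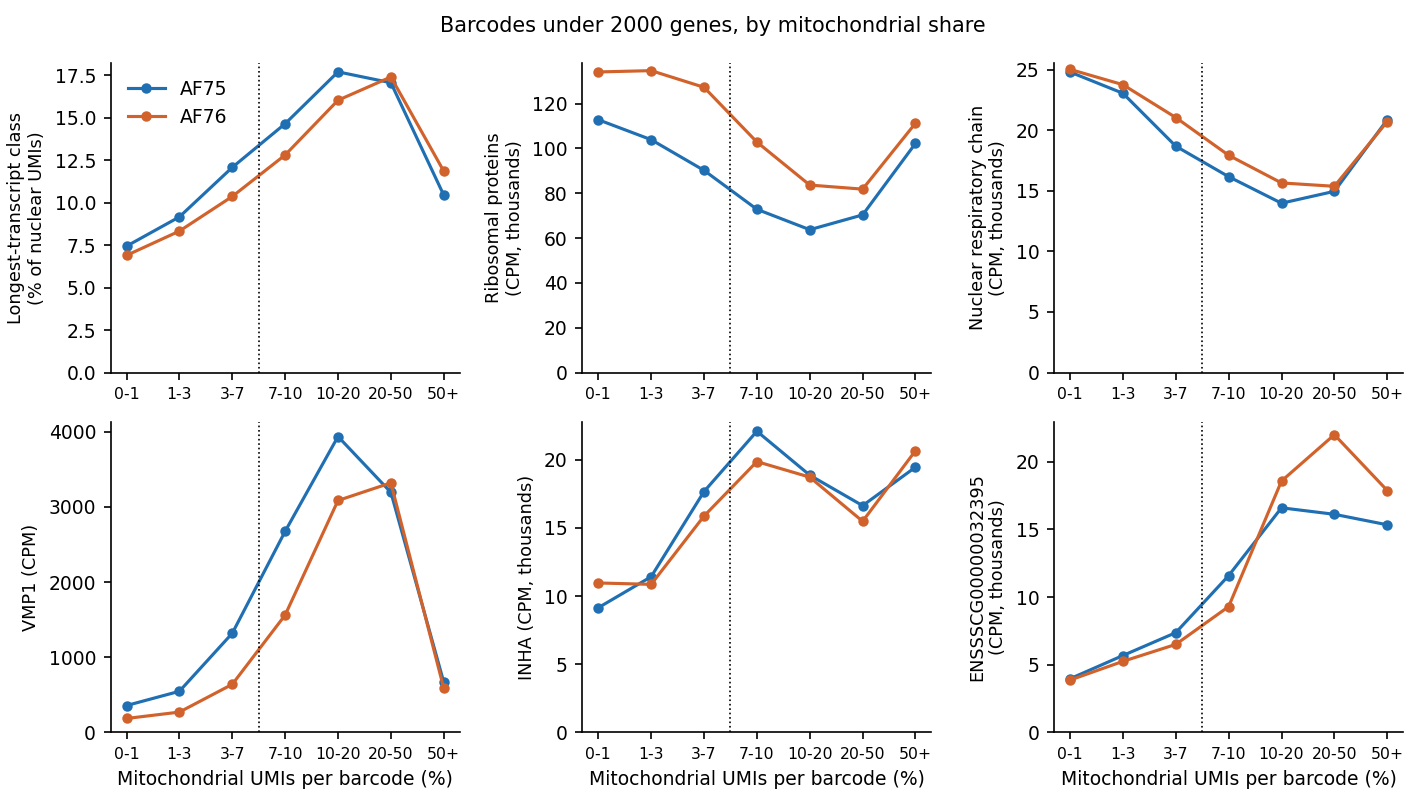
Nuclear composition of barcodes under 2000 genes (vertical axes: % of nuclear UMIs for the longest length class, CPM for the others, in steps of 1000 CPM except for VMP1) by mitochondrial share per barcode (horizontal axes, bins in %), AF75 in blue and AF76 in orange, with a dotted line at the 7% limit. The longest-transcript share and VMP1 rise to a peak between 10% and 50% and drop at 50% or more, ribosomal protein and respiratory chain genes do the reverse, INHA dips at 20 to 50% and is higher again at 50% or more, and ENSSSCG00000032395 stays high.

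From 2000 to 5000 genes the nuclear genes of high-mitochondrial and comparison barcodes were much closer. Of 6504 genes, 1 (0.0154%) was higher by 2-fold or more in both follicles and 2 (0.0308%) were lower. In a single follicle 16 and 30 were higher and 23 and 6 lower. The median log2 ratio was 0.11 in both follicles, with 3187 genes above 1 in both, 1474 below and 1843 split, and Pearson's r across genes was 0.47. With the limit raised to 10%, which left 35 barcodes in AF75 and 39 in AF76, 33 of 2105 genes were higher and 4 lower.

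The gene that was higher, ENSSSCG00000032395, has no symbol in the deposited gene list or the reference table. It was at 8378 CPM in AF75 against 3902, a ratio of 2.15 (2.11 to 2.18), and at 6284 in AF76 against 2423, a ratio of 2.59 (2.54 to 2.65), and was detected in all 193 and 142 barcodes. The call was lost in AF75 on other scales, with a log2 ratio of 0.99 with the median gene ratio as the scale and 0.93 against comparison barcodes reweighted to the same UMIs, where AF76 had 1.26 and 1.06. By mitochondrial share in the upper range it was at 4528 and 2743 CPM from 3 to 7%, 7739 and 4730 from 7 to 10%, and 12492 and 11989 from 10 to 20%, the last over 33 and 39 barcodes. Unlike VMP1 it remained high under 2000 genes at 50% or more, at 15339 and 17874 CPM.

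The lower genes were CXCL14, a chemokine, and APOA1, the main protein of high-density lipoprotein. CXCL14 rested on 6 and 2 UMIs, at 3.88 and 1.60 CPM against 24.97 and 18.6, ratios of 0.155 (0.0570 to 0.339) and 0.0862 (0.0104 to 0.312). It was detected in 2.59% and 1.41% of the high-mitochondrial barcodes, against 4.11% and 3.32% of the comparison barcodes. Single comparison barcodes held up to 224 and 176 of its UMIs. APOA1 was at 1978 CPM in AF75 against 4204, a ratio of 0.471 (0.454 to 0.488), and at 686 in AF76 against 1548, a ratio of 0.443 (0.414 to 0.474), yet was detected in 97.9% and 89.4% of the barcodes. Under 2000 genes APOA1 was not lower than in the comparison barcodes, at ratios of 1.05 and 1.43. Both groups of that range lay below the intact reference of 4204 and 1548 CPM. The high-mitochondrial barcodes had 2935 and 792 CPM there and the comparison barcodes 2786 and 553.

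The next genes by ratio were under 2-fold in at least 1 follicle. MRO was at 336 and 118 CPM against 634 and 256, ratios of 0.529 (0.485 to 0.577) and 0.460 (0.388 to 0.541). LDHA, which interconverts pyruvate and lactate, was at 119 and 81.8 CPM against 224 and 132, and SLC16A3, an exporter of lactate, at 23.9 and 11.2 against 55.6 and 22.3. COX4I2, an alternative subunit of cytochrome c oxidase, had ratios of 0.448 and 0.638, GKN1 0.544 and 0.380, and CISD3, an iron-sulfur protein of mitochondria, 0.608 (0.331 to 1.02) and 0.518 (0.258 to 0.930). The abundant unnamed gene ENSSSCG00000011147 was at 4907 and 4489 CPM against 9272 and 7105. On the higher side, TGFB3, a ligand of the TGF-β family, was at 213 and 286 CPM against 115 and 159, ratios of 1.84 (1.65 to 2.06) and 1.80 (1.61 to 2.00), in 77 and 55 barcodes. ARHGEF3, a guanine nucleotide exchange factor, had 2.00 and 2.16, PLXNA4, a semaphorin receptor, 1.85 and 2.64, PNPLA6, a lysophospholipase, 1.92 and 1.96, NSUN5, an RNA methyltransferase, 1.87 and 1.98, and EPB41L5, CPEB2 and RASGRF2 between 1.80 and 1.89. Apart from TGFB3 and CPEB2 these rested on 20 to 47 UMIs in each follicle.

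**Figure D5:**
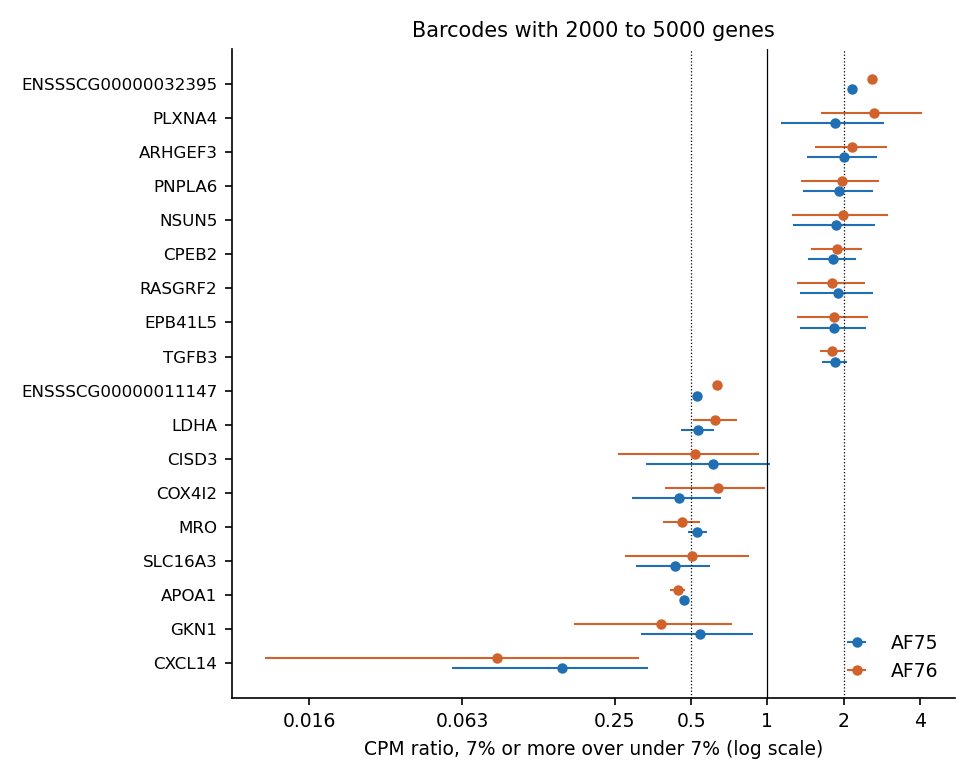
CPM ratio of high-mitochondrial over comparison barcodes (horizontal axis, log scale) for named genes (vertical axis) in barcodes with 2000 to 5000 genes, AF75 in blue and AF76 in orange, with exact conditional 95% intervals and dotted lines at 2-fold either way. ENSSSCG00000032395 lies past 2 in both follicles, APOA1 and CXCL14 lie below 0.5 in both, and the intervals of CXCL14 are the widest.

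The gene lists lay on the same side of 1 as under 2000 genes for the translation, respiration and actin genes, at ratios nearer to 1. Of 59 ribosomal protein genes 56 were below 1 in both follicles and 1 above, at summed ratios of 0.872 (0.867 to 0.877) and 0.933 (0.927 to 0.938). Of 64 respiratory chain genes 46 were below and 5 above, at 0.906 and 0.894, and of 67 mitochondrial ribosome genes 44 were below and 2 above. Of 20 actin genes 13 were below and 3 above, at 0.896 and 0.876. None of these genes reached 2-fold in both follicles. By transcript length the median log2 ratio ran from -0.11 and -0.09 in the shortest length class through 0.09 and 0.11, and 0.20 and 0.21, to 0.28 and 0.30 in the longest, with a Spearman's correlation of 0.46 and 0.48. The longest length class gave a median of 11.8% and 11.96% of a barcode's nuclear UMIs, against 10.2% and 9.85%.

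Of the 21 RNA-processing genes 11 were above 1 in both follicles, 5 below and none past 2-fold, at summed ratios of 1.04 and 1.07 that were below 1 in both follicles with the median gene ratio as the scale. VMP1 was at 1580 and 1332 CPM against 892 and 761, ratios of 1.77 (1.70 to 1.84) and 1.75 (1.67 to 1.84). MAP1B was near 1, at 1.06 and 0.984. Of 12 glycolytic genes 8 were below 1 in both follicles and none above, with a median log2 ratio of -0.52 in AF75 and -0.14 in AF76. Of 10 immediate early genes 6 were above 1 in both and 2 below, of 16 heat shock genes 5 above and 6 below, of 11 stress response genes 4 above and 2 below, and of 14 apoptosis genes 6 above and 4 below, with none past 2-fold in any of these lists. Of 20 sterol genes 5 were above and 11 below, with a median log2 ratio of -0.06 in AF75 and -0.39 in AF76.

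INHA again had the highest level among the granulosa genes. It was at 26661 and 25735 CPM against 20402 and 23890, in all 193 and 142 barcodes, SERPINE2 at 7716 and 7168 against 7036 and 6826, and INHBA at 1327 and 502 against 2092 and 539. Of 10 granulosa genes measured 6 were above 1 in both follicles, 2 below and none past 2-fold. Of 9 mural genes 5 were above in both, 2 below and 1, APOA1, lower by 2-fold, with IL33 at 3692 and 3468 CPM against 2303 and 2647. Leukocyte genes summed to 5.82 and 7.22 CPM against 4.18 and 10.9, red cell genes to 4.53 and 22.5 against 2.62 and 47.5, and endothelial genes to 14.9 and 44.1 against 17.6 and 12.3. The endothelial sum of AF76 rested on 55 UMIs, with 71.4% of the PECAM1 UMIs and 55.6% of the KDR UMIs in 1 barcode each. No barcode of the 193 or 142 passed the leukocyte or red cell limits, which allows up to 1.89% and 2.56% (Clopper-Pearson).

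Some genes of the upper range went in opposite directions in the follicles. TNFAIP6 was at 434 CPM in AF75 against 949, a ratio of 0.457, and at 266 in AF76 against 236, a ratio of 1.12. At a 10% limit the AF75 value of TNFAIP6 turned, to a log2 ratio of 0.057. THBS1, an extracellular matrix protein, had 0.552 and 1.78, MT1A, a metallothionein, 0.746 and 1.51, and AREG 1.35 and 0.868. A single barcode held 27.7% and 23.1% of the THBS1 UMIs of the high-mitochondrial barcodes, and 11.5% of their MT1A UMIs in AF76. THBS1 was detected in 31.6% and 14.8% of these barcodes, against 41.7% and 14.8% of the comparison barcodes. With 1 library per follicle these differences have no replicate.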

How the data were processed

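Antral follicles of 1 pig were profiled by 10x Genomics single-cell RNA-seq, 1 library each. The authors deposited filtered UMI counts per gene and barcode, made with CellRanger 6.0.2 (from the submitters' processing notes) on Sscrofa11.1. No correction for free RNA was made here. AF75 and AF76 were tied to follicles by the submitters' names of the deposited files. The gene list held 22342 genes, 7356 with an ID in place of a symbol, of which 1042 were named from the reference gene table.

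UMIs were summed over the barcodes of each group with scipy 1.17.1, numpy 2.4.6 and pandas 2.3.3 in Python 3.11.15, doublets were scored with scikit-learn 1.9.0, figures were drawn with matplotlib 3.10.9, and the steps were tested on simulated data. Totals per follicle and group are given in the report. No test was made, since each follicle is 1 library. A gene was called past 2-fold the same way in both follicles, over genes with at least 20 UMIs observed or expected. For a count of 0, 3 UMIs were the floor. The members and lists were chosen with earlier results of these data known.

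Genes were named by rule: per gene range the 10 largest and 10 smallest ratios holding in both follicles, the 3 most abundant members of each list, any member of a list of 5 or fewer, and the 13 mitochondrial genes. Exceptions chosen after their values were seen are marked, and further ones are BMPR1B, VMP1, MAP1B, INHBA, RPL7A, PPME1 and, under 2000 genes, ENSSSCG00000032395. Some genes that the rule names are not reported here. The nuclear-retained RNAs listed were not in the gene table. Alternatives were other scalings, limits, filters and folds, a comparison matched on UMIs, a mean over barcodes, and leaving out doublet-scored, blood-marker or shared barcodes.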

Additional observations from a re-analysis of the deposited data

Results flagged for a closer look

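In 2 genes the ratio passed 2-fold in opposite directions in the follicles, and with 1 library each the difference was not tested. Under 2000 genes C1QB, a complement gene of macrophages, had a ratio of 0.0913 in AF75, at 0.832 CPM (2 UMIs) against 9.11, where all 41 UMIs of the comparison barcodes were in 1 barcode. In AF76 its ratio was 2.82, at 31.6 CPM against 11.2, and 31 of its 34 UMIs were in 1 of 4 barcodes. From 2000 to 5000 genes APOD, a lipid-binding protein, had a ratio of 0.160 in AF75, at 6.46 CPM (10 UMIs) against 40.4, and of 2.10 in AF76, at 17.6 CPM (22 UMIs) against 8.40.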

How the results depend on the processing

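Under 2000 genes, the 1342 genes higher by 2-fold in both follicles (19.4% of 6901) became 657 (9.52%) with the median gene ratio as the scale. They became 569 (7.92% of 7184) with mitochondrial UMIs in the totals, 740 (17.8% of 4161) with at least 50 UMIs and 2390 (34.6%) at 1.5-fold. The 11 lower genes became 244 (3.54%), 515 (7.17%), 4 (0.0961%) and 391 (5.67%) under the same settings. They became 18 with the mean of per-barcode CPM, 18 of 5148 over barcodes with 1000 or more genes and 53 of 13019 with no filter. In AF75 and AF76 alone 66 and 48 were lower. From 2000 to 5000 genes, the 1 higher gene became 0 by median scaling, 33 at a 10% limit, 5 by mean CPM, 2 without doublet-scored barcodes, 38 with no filter, 121 at 1.5-fold, and 16 and 30 in AF75 and AF76 alone. The 2 lower genes became 4 by median scaling, 4 with mitochondrial UMIs in the totals, 4 at a 10% limit, 7 with comparison barcodes reweighted to the same UMIs, 4 by mean CPM, 1 with at least 50 UMIs, 12 with no filter, 14 at 1.5-fold, and 23 and 6 in AF75 and AF76 alone. In this upper range 6504 genes were measured as reported and 2105 at a 10% limit. With at least 50 UMIs there were 3940, and with no filter 15043. The cause was not tested beyond what each setting changes by construction. At a 10% limit the percentage of barcodes was 39.8% and 11.2% under 2000 genes and 0.366% and 0.488% from 2000 to 5000. Without blood barcodes the log2 ratio under 2000 genes turned to 1.37 and 1.17 for the red cell list, to 1.42 and 1.17 for HBB, and to 0.64 for ENSSSCG00000007978 in AF76. From 2000 to 5000 genes TNFAIP6 turned to 0.057 in AF75 at a 10% limit, and HBB in AF76 to 0.27 without doublet-scored and 0.34 without blood barcodes. Of 80 list values 52, and of 304 gene values 242, kept 1 sign under every alternative. Leaving out barcodes found in both libraries, an alternative chosen after seeing the data, gave 1332 higher and 12 lower genes under 2000 genes. No paired analysis was possible because each follicle is 1 library.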
